A study of Homo sapiens with 4 samples.

Results

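The RNAs that came down with NSUN2 from lactate-treated PANC-1 cells are described here by the ratio of the NSUN2 immunoprecipitate (IP) to its own input. PANC-1 is a human pancreatic ductal adenocarcinoma cell line. The lactate cells received 30 mM sodium lactate for 24 h, and the vehicle cells received ddH2O for the same 24 h. In both conditions an antibody to NSUN2 on protein A/G magnetic beads captured RNA from a cell lysate for 4 h, and the input was RNA of the same lysate taken before capture. The series holds 4 libraries, 1 for each of lactate IP, lactate input, vehicle IP and vehicle input, and the description rests on the 2 lactate libraries. No library made with a control antibody was analysed here. With 1 library a group there is no replicate error and no test, and every comparison below is between libraries, not conditions. A gene was included when its FPKM, its reads scaled by gene length and library size, was at least 1 in either lactate library. That kept 7170 of the 24483 genes in the table, of which 7140 are nuclear and 30 are mitochondrially encoded. The enrichment of a gene is log2 of (IP FPKM + 1) over (input FPKM + 1), minus the median of the nuclear genes, so that 0 is the median nuclear gene. That median was -0.09 before centring. A distance of 1 on this scale is 2-fold, and the added 1 understates the difference of a gene with low FPKM.

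NSUN2 is a methyltransferase that places a methyl group on cytosine (5-methylcytosine, m5C) in tRNAs, in other small noncoding RNAs and in some messages. It is known mainly from the nucleus and nucleolus, and also acts in the cytoplasm and in mitochondria. RNA immunoprecipitation followed by sequencing reports which RNAs are captured with the protein, directly or through its partners, and does not read the methyl mark itself. Lactate is the end product of glycolysis in many tumour cells, and it also serves as the donor for lactylation of proteins.

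The lactate input held 11175432 reads and the lactate IP 15189967, as recovered from the FPKM values. Nuclear genes took 20.9% of the input and 13.9% of the IP, or 2339195 and 2112599 reads. A nuclear gene with FPKM of at least 1 had a median of 144 reads in the input and 157 in the IP. A count of 0 allows a share of up to 2.68e-05% of the input and 1.97e-05% of the IP. All intervals below are 95% exact (Clopper-Pearson) intervals on the log2 ratio of reads. They are computed without the added 1 and centred on their own nuclear median, so an interval can lie wholly farther from 0 than the enrichment beside it. They treat each read as a separate count and hold no variation between samples. The library kit adds no molecular identifiers, so copies of the same molecule cannot be told from separate molecules and the intervals may be too narrow. Each library pools many cells, so fewer cells with an RNA and less of it per cell cannot be told apart. The input carried the RNAs of the labelled line, with KRT18 at 45.5 FPKM, KRT8 at 11.98, VIM at 176 and CD44 at 33.5. EPCAM was at 1.18 FPKM, while KRT7 at 0.0671 and MUC1 at 0.447 stayed under 1. The acinar and endocrine markers in the table, CEL and IAPP, had no read in the input. SYT1, a synaptic vesicle protein listed among the neuronal markers, was at 9.54 FPKM, while SOX10 and TUBB3 had no read in either library.

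Among nuclear genes the lactate IP departed from its input in both directions. At least 2-fold above the median were 1368 of 7140 genes (19.2%), and at least 2-fold below it were 1461 (20.5%). The middle 50% of genes lay between -0.84 and 0.83, and the 5th and 95th percentiles were -2.03 and 1.55. The lower side reached further, with 371 genes at least 4-fold below and 116 at least 4-fold above. The counting interval lay wholly beyond 2-fold for 1094 genes above and 1260 below. The split depends on the scaling. Of the genes past 2-fold, 48.4% were on the higher side with median centring, and 65.9% (1992 genes higher and 1029 lower) when both libraries were scaled to equal nuclear reads. With the second scaling the median nuclear gene lay at 0.32 on the log2 scale, 0.42 above its value in the deposited FPKM.

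The filter also shapes these counts. Of the 1368 higher genes, 873 passed it through the IP alone, with an input under 1 FPKM, and every gene that passes this way lies above the median by construction. Likewise 628 of the 1461 lower genes passed through the input alone. Among the 3858 nuclear genes with at least 1 FPKM in both libraries, the counts were 495 higher by at least 2-fold (12.8%) and 833 lower by as much (21.6%). At the threshold, KIAA1549 at 0.158 FPKM in the input against 1.00 in the IP was just inside, as was EEF1AKMT1 at 1.00 and 0.0491. LINC01063, at 0 and 0.9996, and ARID5A, at 0.0251 and 0.998, were just outside.

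**Figure D1:**
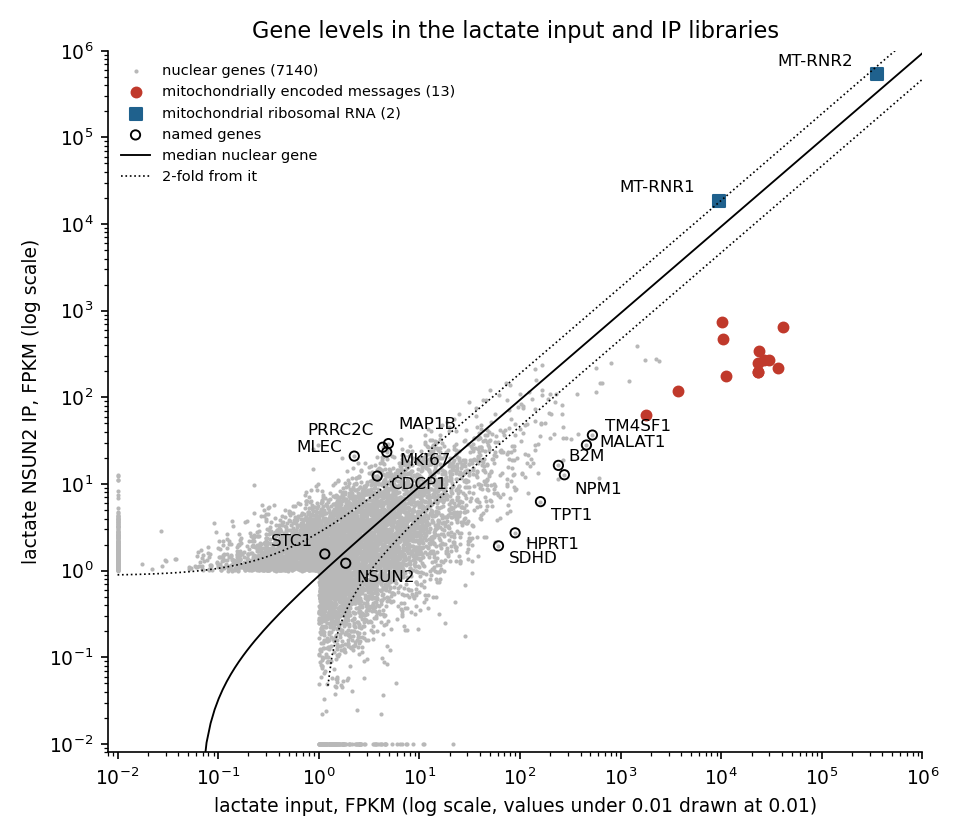
FPKM of each gene in the lactate input (horizontal) and the lactate NSUN2 IP (vertical), both on log axes, with values under 0.01 drawn at 0.01 and dotted lines 2-fold from the median nuclear gene. The 13 mitochondrial messages lie far below the dotted lines, MT-RNR1 and MT-RNR2 lie above the median line, and the 12 lowest protein-coding genes have input levels from 22.4 to 524 FPKM. Genes with low input cannot rank among these 12, because enrichment is computed with a constant added to each FPKM.

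MLEC led the protein-coding genes with at least 50 reads over the pair. MLEC (ENSG00000110917) encodes malectin, a lectin of the endoplasmic reticulum that recognises glucosylated glycans on new glycoproteins. Its level was 2.25 FPKM in the input (162 reads) and 21.01 FPKM in the IP (2055 reads). That is an enrichment of 2.85, or 7.21-fold above the median nuclear gene, with a counting interval of 3.12 to 3.59. Its 5 peaks, 3 in exons and 2 in the 3′ UTR, all had q of at most 0.05, and the highest reached a fold of 29.3.

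PRRC2C, an RNA-binding protein found in stress granules, rested on the most reads of the 12 highest genes. It had 685 reads in the input and 5733 in the IP, 4.32 and 26.6 FPKM, an enrichment of 2.47 with an interval of 2.63 to 2.87. BAZ1B, a subunit of chromatin remodelling complexes, was at 2.45 FPKM in the input against 17.5 in the IP, an enrichment of 2.52. ANKRD11, a chromatin regulator, was at 0.939 and 9.49 FPKM, an enrichment of 2.53. MAP1B, a microtubule-associated protein, was at 4.92 and 29.3 FPKM, an enrichment of 2.45.

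The other members of the highest 12 were AGPAT2 at 2.57, KCNK6 at 2.49, UBTD1 at 2.48, TSSC4 at 2.46, PMEPA1 at 2.45, RASSF7 at 2.40 and CACNG8 at 2.40. AGPAT2 makes phosphatidic acid, KCNK6 is a potassium channel, and PMEPA1 restrains TGF-β signalling. AGPAT2, UBTD1, TSSC4, RASSF7 and CACNG8, like ANKRD11, were under 1 FPKM in the input and passed the filter through the IP alone. AGPAT2 and TSSC4 rest on 20 and 22 input reads. UBTD1 and RASSF7 rest on 5 and 10 input reads, and their intervals are wide, 3.26 to 6.16 for UBTD1 and 3.22 to 5.21 for RASSF7. All 12 were also above the median in vehicle cells, from 1.03 for RASSF7 to 2.74 for PRRC2C.

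The lowest protein-coding genes were abundant in the input. The measure forces part of this. With a constant added to each FPKM, a gene with low input cannot reach so low an enrichment, even with no read in the IP. The abundance of these genes is therefore not a separate result. The purine salvage enzyme HPRT1 was at 89.4 FPKM in the input (1610 reads) and at 2.74 in the IP (67 reads). Its enrichment was -4.50, 22.7-fold below the median, with an interval of -5.28 to -4.55. TPT1, the translationally controlled tumour protein, was at 160 FPKM in the input against 6.27 in the IP, an enrichment of -4.37. SDHD, a membrane anchor of succinate dehydrogenase, was at 61.1 and 1.93 FPKM, an enrichment of -4.31. NPM1, the nucleolar chaperone nucleophosmin, was at 276 and 12.8 FPKM, an enrichment of -4.24.

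B2M, the light chain of MHC class I, was at 241 FPKM in the input against 16.4 in the IP, an enrichment of -3.70. TM4SF1, a tetraspanin-like surface protein, was at 524 and 36.7 FPKM, an enrichment of -3.71. Also among the lowest 12 were MORF4L2 at -4.18, CRYZ at -4.05, LRRC40 at -3.93, SMIM15 at -3.82 and HNRNPA2B1 at -3.66. Their input levels ran from 22.4 FPKM for LRRC40 to 241 for MORF4L2. In vehicle cells the same 12 lay between -3.20 and -5.13. HPRT1, TPT1, NPM1 and HNRNPA2B1 have processed pseudogenes elsewhere in the genome, and how reads were shared among copies is not stated.

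CDCP1, a transmembrane glycoprotein that Src family kinases phosphorylate, was among the higher genes. It was at 3.81 FPKM in the input (277 reads) and 12.4 in the IP (1222 reads), an enrichment of 1.57 with an interval of 1.64 to 2.02. It held 14 listed peaks, 7 in introns, 3 in exons and 4 in the 3′ UTR, of which 11 had q of at most 0.05. The highest, at hg38 3:45088910-45089325 on the minus strand, lies in an exon, with a fold of 30.1. STC1, the secreted glycoprotein stanniocalcin, had 53 reads in the input and 98 in the IP, 1.15 and 1.56 FPKM, an enrichment of 0.35 with an interval of 0.07 to 1.08. The message of NSUN2 itself had 114 reads in the input and 102 in the IP, 1.85 and 1.22 FPKM, an enrichment of -0.27 with an interval of -0.88 to -0.08. Its 2 peaks lie in introns and neither had q of at most 0.05. These RNA levels do not measure how much NSUN2 protein was captured.

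Mitochondrially encoded messages and mitochondrial ribosomal RNA went opposite ways. All 13 messages of the mitochondrial genome, which encode subunits of the respiratory chain and of ATP synthase, were lower in the IP. MT-CO2, a subunit of cytochrome c oxidase, was the least depleted, at 10213 FPKM in the input against 736 in the IP, an enrichment of -3.70. MT-ND2, a subunit of complex I, was the most depleted, at 36952 and 218 FPKM, an enrichment of -7.30 or 158-fold below the median. Together these messages took 22.7% of input reads and 0.353% of IP reads. MT-ATP6 with MT-ATP8 and MT-ND4 with MT-ND4L overlap on the genome, MT-ND6 lies on the opposite strand of the circle, and use of strand in counting is not stated, so reads of overlapping or antisense genes cannot be told apart.

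The large mitochondrial ribosomal RNA, MT-RNR2, took 55.1% of the input and 83.7% of the IP, 6158925 and 12713353 reads. Its enrichment was 0.69. The small one, MT-RNR1, went from 0.908% to 1.78% of reads, or 9519 to 18670 FPKM, an enrichment of 1.06. That value was just under 2-fold without centring (0.97) and with no filter on low FPKM (0.95). A single peak was listed on the mitochondrial genome, at hg38 MT:1958-2447, with a fold of 3.28. It covers bases 288 to 777 of the 1559 bases of MT-RNR2. Of 15 mitochondrial tRNAs measured, 4 had at least 50 reads over the pair, and these were lower in the IP. MT-TP had 724 and 157 reads, an enrichment of -2.55, MT-TY 90 and 44 reads at -1.36, MT-TL1 79 and 12 reads at -2.95, and MT-TE 70 and 7 reads at -3.49. The other tRNAs, with 1 to 47 reads over the pair, are not ranked.

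Long noncoding RNAs spanned the whole range. Of 414 measured, 135 were higher by at least 2-fold and 65 were lower by as much, where all nuclear genes had 19.2% higher and 20.5% lower. Their median was 0.55, but their median depth was 25 reads over the pair. Among protein-coding genes the median was -0.01 over 5879 genes, and among processed pseudogenes -0.45 over 523. MALAT1, an abundant RNA of nuclear speckles, had 45122 reads in the input and 3782 in the IP, 457 and 28.2 FPKM, an enrichment of -3.88. NEAT1, the scaffold of paraspeckles, had 3816 and 2239 reads and an enrichment of -1.01. MAFG-DT (3 and 95 reads) was 4.01-fold above the median and SNHG25 (15 and 73 reads) was at 1.70. The unnamed ENSG00000274422 had 62 reads in the input and 1008 in the IP, an enrichment of 3.07. ENSG00000267904 had 0 reads in the input and 93 in the IP, at least 24.9-fold higher against 3 reads in the input. ENSG00000290003, with 69 reads in the input and 0 in the IP, was at least 28.6-fold lower against 3 IP reads, and ENSG00000288770, with 65 and 0, at least 27.0-fold lower. ENSG00000290018 had 208 and 11 reads and an enrichment of -3.89.

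Ribosomal protein messages were the nuclear list with the largest share of lower members. They belong to the messages whose transcripts start with a run of pyrimidines (5′ TOP), which governs their translation under mTOR. Of 69 measured, 32 were at least 2-fold lower and 4 at least 2-fold higher, with a median of -0.89, against 20.5% lower and 19.2% higher among all nuclear genes. Many of these messages were abundant in the input. Among protein-coding genes with 9.98 FPKM and more in the vehicle input, 614 of 1147 were at least 2-fold lower and 55 higher, with a median of -1.11. Whether the list departs from messages of like abundance was not tested. The 3 with the highest and the 3 with the lowest enrichment among those that start with C and at least 4 more pyrimidines are shown, from 5 bases before to 25 bases from the RefSeq start (GRCh38.p14), with the pyrimidine run in capitals.
RPSA: cctgtCTTTTCCgtgctacctgcagagggg
RPS9: cgcgcCTCTTTCTCagtgaccgggtggttt
RPL13A: tcctcCTTTTCCaagcggctgccgaagatg
RPS24: tggttCTCTTTTCCTCCTTggctgtctgaa
RPL26: tagttCTCTTCCCTTTTgcggccatcaccg
RPS13: gctctCCTTTCgttgcctgatcgccgccat

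The windows lie at 3:39406715-39406744 on the plus strand for RPSA and 19:54200853-54200882 on the plus strand for RPS9. They lie at 19:49487603-49487632 on the plus strand for RPL13A and 10:78033858-78033887 on the plus strand for RPS24. The last 2 lie at 17:8383169-8383198 on the minus strand for RPL26 and 11:17077643-17077672 on the minus strand for RPS13. RPSA was at 1.55 FPKM in the input against 5.59 in the IP (133 and 653 reads), an enrichment of 1.46, RPS9 was at 1.03 and RPL13A at 0.60. RPS24 was at 151 and 13.5 FPKM (13248 and 1609 reads), an enrichment of -3.30, RPL26 was at -3.13 and RPS13 at -2.71. A pyrimidine start was thus present at both ends of the list.

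Of the 56 measured ribosomal protein genes with a RefSeq start window, 39 began with C and at least 4 pyrimidines (69.6%), against 4.04% of 27305 promoters. The latter share also covers promoters of genes not measured here. The median enrichment was -1.23 for those 39 and -0.55 for the other 17. At least 2-fold lower were 23 of the 39 and 5 of the 17. Over all protein-coding genes with at least 50 reads and a window, the 298 with such a start had a median of -0.22 and the 4489 without it 0.01. The motif was searched on the sense strand at the annotated start only, and a match describes these letters, not the start used in these cells. Many ribosomal protein genes have processed pseudogenes, so their counts are uncertain.

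**Figure D2:**
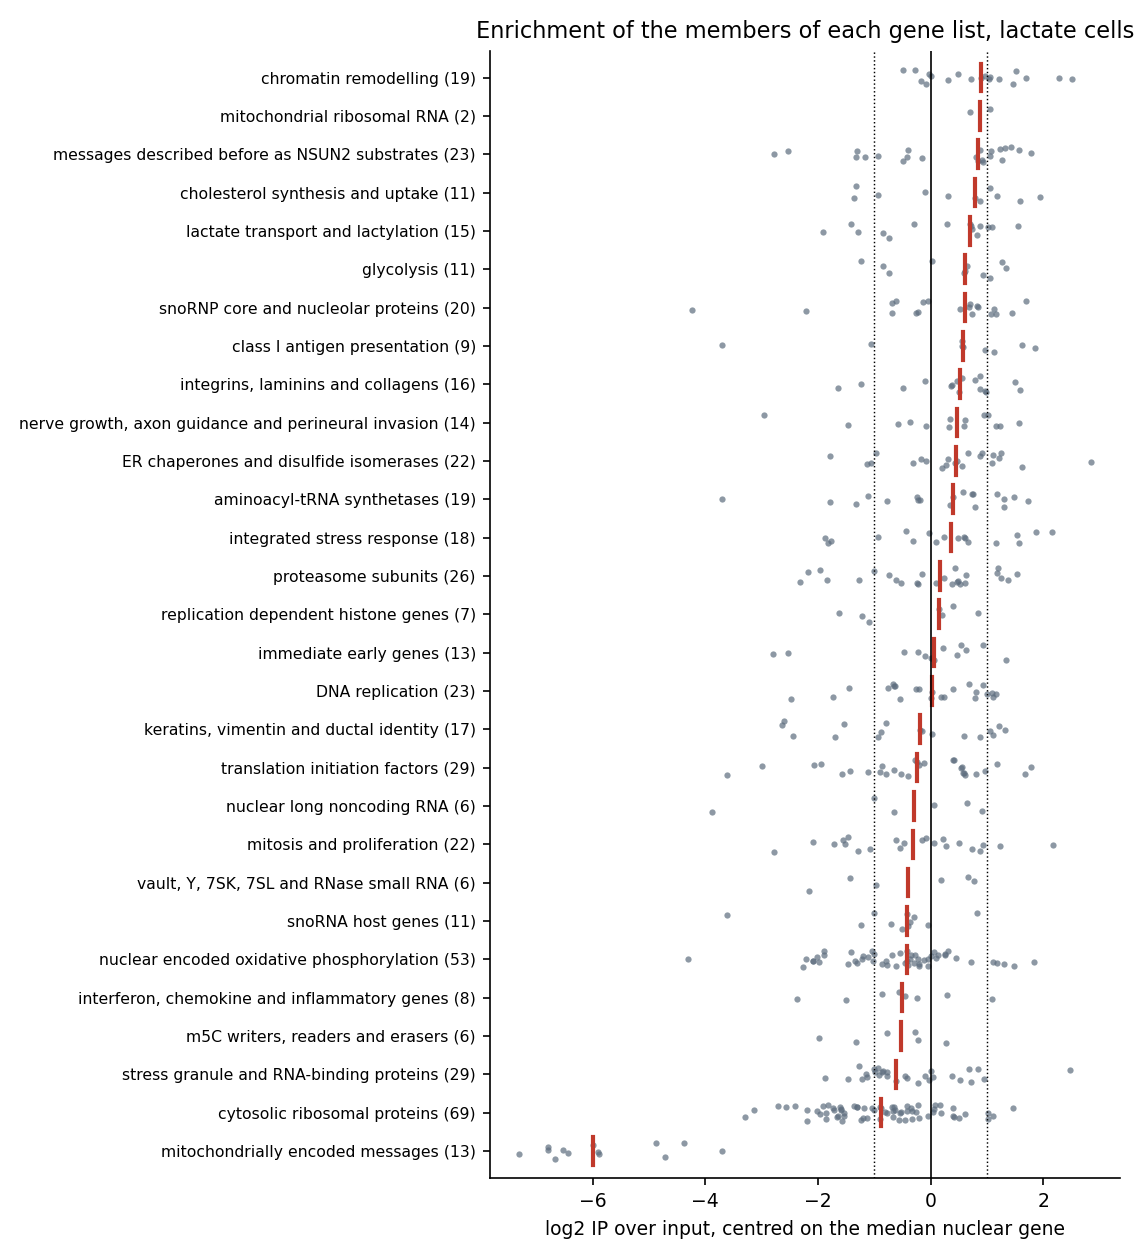
Enrichment of every measured member of 29 gene lists in lactate cells (log2 IP over input, centred on the median nuclear gene), with red bars at the list median, dotted lines at 2-fold and the number measured in brackets. Mitochondrially encoded messages stand far to the left, ribosomal proteins have the lowest median of the nuclear lists (-0.89), and most other lists spread across 0.

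Among the 29 initiation factors measured, 3 were at least 2-fold higher (10.3%) and 7 lower (24.1%). Over all nuclear genes 19.2% were higher and 20.5% lower, and the counts of every list below are to be read against these shares. In many lists some of the higher members passed the filter through the IP alone, and some of the lower ones through the input alone. EIF4G1, the scaffold of the cap-binding complex, was at 1.23 FPKM in the input against 6.16 in the IP, an enrichment of 1.78. EIF3A, the largest subunit of the complex that recruits the small ribosomal subunit, was at 13.0 and 41.0 FPKM, an enrichment of 1.68. EIF4A2, an RNA helicase, was at 43.7 and 2.44 FPKM, an enrichment of -3.61. EIF3E, a subunit of the same complex as EIF3A, was at 15.7 and 0.978 FPKM, an enrichment of -2.99. The list median of -0.24 turned to 0.13 when libraries were scaled to equal nuclear reads.

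Among aminoacyl-tRNA synthetases, which charge tRNAs, 5 of 19 were higher (26.3%) and 4 lower (21.1%), near the shares of 19.2% and 20.5% over all nuclear genes. QARS1 at 1.73 and SARS1 at 1.48 were on the higher side and NARS1 at -1.79 on the lower. In the snoRNP core and nucleolar list, 5 of 20 were higher and 2 lower. Of the 20, 6 passed the filter through the IP alone, among them 2 of the 5 higher ones. NOP56, a core protein of box C/D particles, was at 11.4 and 36.8 FPKM (1.70) and DKC1, the pseudouridine synthase, at 6.31 and 17.7 FPKM (1.44). NOP10, a partner of DKC1, was at -2.21, and NPM1 is the lowest of the list. Among host genes of snoRNAs, 0 of 11 were at least 2-fold higher and 3 were lower. RACK1, a ribosome-bound scaffold, was the highest at 0.82 and EIF4A2 the lowest.

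Proteins of stress granules and related RNA-binding proteins were mostly below the median, with 20 of 29 measured below it. At least 2-fold lower were 7 (24.1%, against 20.5% of nuclear genes). Of the 29, 7 passed the filter through the input alone, among them 4 of the lower ones. Among the 20 above 1 FPKM in both libraries, 3 were lower (15%, against 21.6% of nuclear genes above 1 FPKM in both). The median of those 20 was -0.43. G3BP1, the stress granule nucleator, was among the lower ones, at 5.31 FPKM in the input against 1.45 in the IP (-1.27). CNBP, a nucleic acid-binding zinc finger protein, was the lowest, at 47.3 and 11.3 FPKM (-1.88). PRRC2C was the single member at least 2-fold higher. Of the writers, readers and erasers of m5C, 6 of 19 were measured. ALYREF, an export factor that reads m5C, was at 0.28, and YBX1, a cytoplasmic reader, at -1.33. SRSF2, a splicing factor that binds m5C, was the lowest, at 20.7 and 4.16 FPKM (-1.98).

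Messages that earlier studies have named as NSUN2 substrates lay on both sides of the median. Of 23 measured, 8 were at least 2-fold higher, 34.8% against 19.2% of nuclear genes, and 5 were at least 2-fold lower, 21.7% against 20.5%. Of the 23, 5 passed the filter through the IP alone, among them 2 of the 8 higher ones, PCYT1A and IRF3. Among the 17 above 1 FPKM in both libraries, 6 were higher (35.3%) and 5 lower (29.4%). The shares of nuclear genes above 1 FPKM in both were 12.8% and 21.6%. PCYT1A, an enzyme of phosphatidylcholine synthesis, was at 0.719 and 4.55 FPKM, an enrichment of 1.78. GRB2, an adaptor of receptor tyrosine kinases, was at 2.24 and 7.18 FPKM, an enrichment of 1.43. HDGF, a growth factor, was at 7.72 and 16.2 FPKM, an enrichment of 1.07. The lowest were CDK1, the mitotic kinase, at 18.5 and 1.67 FPKM (-2.77), and SRSF6, a splicing factor, at 20.5 and 2.50 FPKM (-2.53). The list median was 0.85 over all 23 and -0.15 over the 17 with at least 1 FPKM in both libraries. The list includes CDCP1, and it rests on general knowledge of the literature rather than on a file of the series.

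Of 19 chromatin remodelling subunits measured, 8 were higher by at least 2-fold (42.1%, against 19.2% of nuclear genes) and 0 were lower by as much. SMARCC1, a core subunit of BAF complexes, was at 1.56 FPKM in the input against 10.7 in the IP (133 and 1241 reads), 4.87-fold above the median. BPTF, the largest subunit of the NURF complex, was at 1.56 and 6.79 FPKM, an enrichment of 1.70. SMARCA4, the ATPase of BAF complexes, had 22 and 477 reads, an enrichment of 1.52. PBRM1 was the lowest at -0.48. Of the 19, 9 passed the filter through the IP alone, among them 5 of the 8 higher ones. Among the 10 above 1 FPKM in both libraries, 3 were at least 2-fold higher (30%, against 12.8% of nuclear genes above 1 FPKM in both) and the median was -0.01.

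MKI67, the surfactant of mitotic chromosomes, was at 4.74 FPKM in the input against 23.4 in the IP (680 and 4563 reads), an enrichment of 2.18. BIRC5, the survivin subunit of the chromosomal passenger complex, was at 3.07 and 7.97 FPKM (1.23). CDK1, CCNA2 at -2.08 and NUF2 at -1.72 were on the lower side, with 8 of 22 mitotic genes lower (36.4%) and 2 higher (9.09%). The median of -0.32 turned to 0.12 with libraries scaled to equal nuclear reads. Among 23 DNA replication genes, 4 were higher and 3 lower, from MCM5, a subunit of the replicative helicase, at 1.17 to PCNA, the sliding clamp, at -2.48. Of the 23, 5 passed the filter through the IP alone, among them 2 of the 4 higher ones, MCM5 and MCM7. Among the 15 above 1 FPKM in both libraries, 2 were higher (13.3%) and 3 lower (20%). The shares of nuclear genes above 1 FPKM in both were 12.8% and 21.6%.

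Of 53 nuclear oxidative phosphorylation genes 19 were lower (35.8%, against 20.5% of all nuclear genes) and 5 higher (9.43%, against 19.2%), with a median of -0.42. UQCRC1, a core subunit of complex III, was at 4.41 and 17.1 FPKM (1.83), and ATP5F1B, the catalytic subunit of ATP synthase, at 36.3 and 74.8 FPKM (1.11). Below SDHD the next lowest was ATP5PD at -2.27. Of 26 proteasome subunits 5 were higher (19.2%) and 6 lower (23.1%), which is near the shares over all nuclear genes, from PSMD2 at 1.54 to PSMD12 at -2.32. In the endoplasmic reticulum list, 6 of 22 were higher (27.3%) and 3 lower (13.6%). Of the higher ones 2 passed the filter through the IP alone, and of the lower ones 1 through the input alone. CALR, the calcium-binding chaperone calreticulin, was at 2.27 and 8.43 FPKM (1.62), and ERO1A, the oxidase that drives disulfide formation, at 9.52 and 1.86 FPKM (-1.79).

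Genes of lactate and glucose metabolism differed among themselves. SLC16A3, the exporter of lactate from glycolytic cells, was at 0.659 FPKM in the input against 3.59 in the IP (68 and 503 reads), an enrichment of 1.56. SLC16A1, a related monocarboxylate transporter, was at 6.05 and 1.70 FPKM, an enrichment of -1.29. LDHA, the enzyme that makes lactate from pyruvate, was at 28.2 and 14.3 FPKM (-0.84). Of 15 genes on the list of lactate transport and lactylation, 3 were higher and 3 lower, and the 3 higher ones, SLC16A3, AARS2 and CREBBP, all had under 1 FPKM in the input. SIRT1, a deacylase, was the lowest at -1.91. Among 11 glycolytic genes, TPI1 at 1.34, PKM at 1.26 and ENO1 at 1.05 were higher, and PGK1 at -1.23 was lower.

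In the integrated stress response list, 5 of 18 were higher (27.8%, against 19.2% of nuclear genes) and 3 lower (16.7%, against 20.5%). The higher members PHGDH and SESN2 passed the filter through the IP alone. TRIB3, a pseudokinase induced by ATF4, was at 2.61 and 14.2 FPKM (2.16), SLC7A5, an amino acid transporter, was at 3.14 and 13.3 FPKM (1.88), and PHGDH, the entry enzyme of serine synthesis, was at 0.760 and 3.91 FPKM (1.57). CEBPG at -1.87 and PSAT1 at -1.82 were the lowest. ATF4 itself, with 3627 and 4555 reads, lay at -0.02. Of 13 immediate early genes 1 was higher, KLF6 at 1.35, and 2 were lower, DUSP6 at -2.80 and CCN1 at -2.53. CXCL8, a neutrophil chemokine, had 131 reads in the input and 0 in the IP, at least 54.4-fold lower against 3 IP reads. Of 8 interferon and inflammatory genes measured 1 was higher, ISG15 at 1.10, and 2 were lower, CXCL8 and CCL20, which had 38 and 1 reads.

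Among antigen presentation genes, HLA-E was at 6.74 and 25.1 FPKM (1.85) while B2M, its partner chain, was near the bottom of all genes. In the list on nerve growth, axon guidance and perineural invasion, 4 of 14 were higher, CDCP1, PLXND1, SEMA3F and PLXNB2. The 2 lower ones were NRP1 at -1.47 and SEMA3C at -2.96. Of the 4 higher ones, 3 (all but CDCP1) passed the filter through the IP alone, and NRP1 passed through the input alone. Among the 7 above 1 FPKM in both libraries, 1 was higher (14.3%, against 12.8% of nuclear genes above 1 FPKM in both) and 1 was lower. SEMA3C, a secreted semaphorin, had 1562 reads in the input and 175 in the IP. ITGA3, the laminin-binding integrin chain, was at 2.45 and 8.66 FPKM (1.58) and ITGAV, a vitronectin receptor chain, at 6.03 and 1.13 FPKM (-1.63), the ends of a list with 2 higher and 2 lower of 16.

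The keratins KRT80 at 1.33, KRT8 at 1.21, KRT18 at 1.11 and KRT19 at 1.05 were the 4 higher members of the ductal identity list of 17. S100A6, S100A11, S100A10, VIM and CLDN1 were the 5 lower ones, from -1.54 for S100A10 to -2.64 for CLDN1. S100A6, a small calcium-binding protein, was at 1740 FPKM in the input against 267 in the IP. In cholesterol synthesis and uptake 4 of 11 were higher and 2 lower. PMVK was at 1.95 and DHCR7 at 1.05, and IDI1 at -1.32 and SC5D at -1.36 were lower. IDI1 and SC5D passed the filter through the input alone, and 1 of the 4 higher ones through the IP alone. Among the 6 above 1 FPKM in both libraries, 3 were higher (50%) and 0 lower. The shares of nuclear genes above 1 FPKM in both were 12.8% and 21.6%. Of 7 histone genes measured 0 were higher. H2BC12, H2BC8 and H2AC6 were lower, with 8 to 37 reads over the pair, and H4C3, the most abundant, was at 0.21 with 659 and 972 reads. All 3 lower histone genes passed the filter through the input alone. The vault, Y and other small RNAs had at most 29 reads in a library and are not ranked.

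The authors' peak list for the lactate IP over its input held 48104 peaks in 12114 genes. Folds and q-values of peaks are those the authors deposited, and 20549 peaks had q of at most 0.05. Peak lengths ran from 200 to 5127 bp, and 42.8% were exactly 200 bp. By the authors' annotation 57.7% lay in introns (95% Wilson interval 57.2 to 58.1%), 19.8% in exons, 15.4% in 3′ UTRs, 1.35% in 5′ UTRs and 5.74% between genes. With q of at most 0.05, introns held 46.9%, exons 24.9% and 3′ UTRs 23.5%. The share with q of at most 0.05 was 65.0% for 3′ UTR peaks, 53.6% for exon peaks and 34.8% for intron peaks.

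The highest folds were not confined to one part of genes. TNS3, a focal adhesion protein, held the highest, a fold of 80.2 in an intron at 7:47338511-47339764 on the minus strand. NSMF had a 3′ UTR peak with a fold of 62.4, DST, a cytoskeletal linker, an intron peak of 57.3, and MAP4K4, a kinase, an exon peak of 48.0. CACNG8, a calcium channel subunit among the 12 highest genes, had a 3′ UTR peak of 46.9, and KMT2B, a histone methyltransferase, an exon peak of 43.5. All of these overlap a peak of the vehicle list, and the genes had enrichments from 1.09 for KMT2B to 2.40 for CACNG8. Peak sequences are not shown because no genome of this build was used here.

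Peaks in exons and UTRs were most frequent in the higher genes, while intron peaks were about as frequent in every class. Both measures come from the same 2 libraries, so this is a description of their overlap and not independent support. Of the 973 protein-coding genes with at least 50 reads that were at least 2-fold higher (17.0% of 5736), 964 had a peak in an exon or UTR (99.1%). Of the 1151 at least 2-fold lower (20.1%), 301 had one (26.2%), and of the genes between, 72.2%. For 3′ UTR peaks the shares were 74.0%, 7.38% and 44.5% in the same order. Intron peaks were found in 45.8% of higher genes, 45.4% of lower genes and 51.2% of those between. HPRT1, the lowest gene, held an intron peak with a fold of 4.28 and an exon peak of 3.76, and SDHD held 2 intron peaks.

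The 9 higher genes with no exon or UTR peak were MACROD1, DDIT3, RPP25L, CABLES2, DYNC2I2, APBB1, ZNHIT2, WDR46 and CREB3. CREB3, a membrane-bound transcription factor, was the highest of them at 1.78, with 37 and 218 reads. By peak position, median enrichment was -0.90 over 1863 genes with no exonic peak and 0.09 over 1257 with exon peaks alone. It was 0.67 over 1375 with 3′ UTR and no exon peaks and 0.72 over 1039 with both.

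In 5 of the 6 genes with the most peaks, the peaks were mostly intronic, and in DST they were mostly exonic. SYT1, which spans 588 kb in RefSeq, held 74 peaks, 63 of them in introns, and its gene-level enrichment was -0.46. ZC3H12B held 60 and SBF2 57, and both were under 1 FPKM in the input and the IP. APP, the amyloid precursor, held 56 (enrichment 0.04), THSD4 56 (0.66) and DST 55, of which 33 were in exons (1.17). Density ran from 8.16 peaks per 100 kb in THSD4 to 19.3 in APP.

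**Figure D3:**
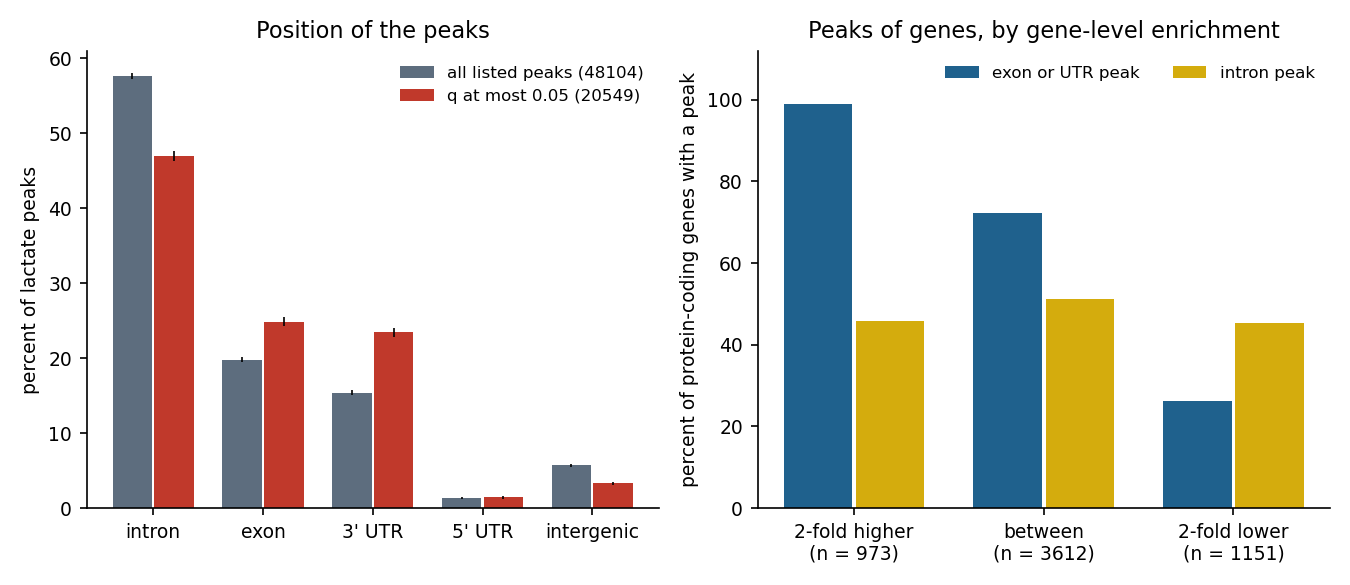
Left, percent of lactate peaks in each annotated part of genes, for all 48104 listed peaks and the 20549 with q of at most 0.05, with 95% Wilson intervals. Right, percent of protein-coding genes with at least 50 reads that hold an exon or UTR peak or an intron peak, by gene-level enrichment; exonic peaks are in 99.1% of higher and 26.2% of lower genes, intron peaks in 45.4% to 51.2% of each class.

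Enrichment was lower for messages that were more abundant in the input. To avoid setting a ratio against its own denominator, protein-coding genes were put into 5 groups of equal size by their FPKM in the vehicle input, a separate library. The median went from 0.87 in the lowest group (up to 1.30 FPKM) through 0.23, -0.15 and -0.46 to -1.11 in the highest group (9.98 FPKM and more). In the highest group 614 of 1147 genes were at least 2-fold lower and 55 higher. The filter bears on the lowest group. Over the 3393 genes with at least 1 FPKM in both lactate libraries the medians went from 0.45 to -1.25. That minimum also keeps genes with a low input from lying far below the median. In the lowest group 0 of 679 genes were at least 2-fold lower, so this subset cannot show the trend free of a filter. Spearman's rho across genes was -0.58 over all 5736 genes and -0.57 over those 3393. These are correlations across genes, which are not independent replicates and share their libraries.

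Length and promoter composition showed less. Groups of equal size by gene length had medians between -0.15 and 0.13 (rho 0.07). By GC of the RefSeq promoter window, which 4787 of 5736 genes have (83.5%), medians went from -0.25 in the lowest of 5 groups to 0.45 in the highest (rho 0.17).

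**Figure D4:**
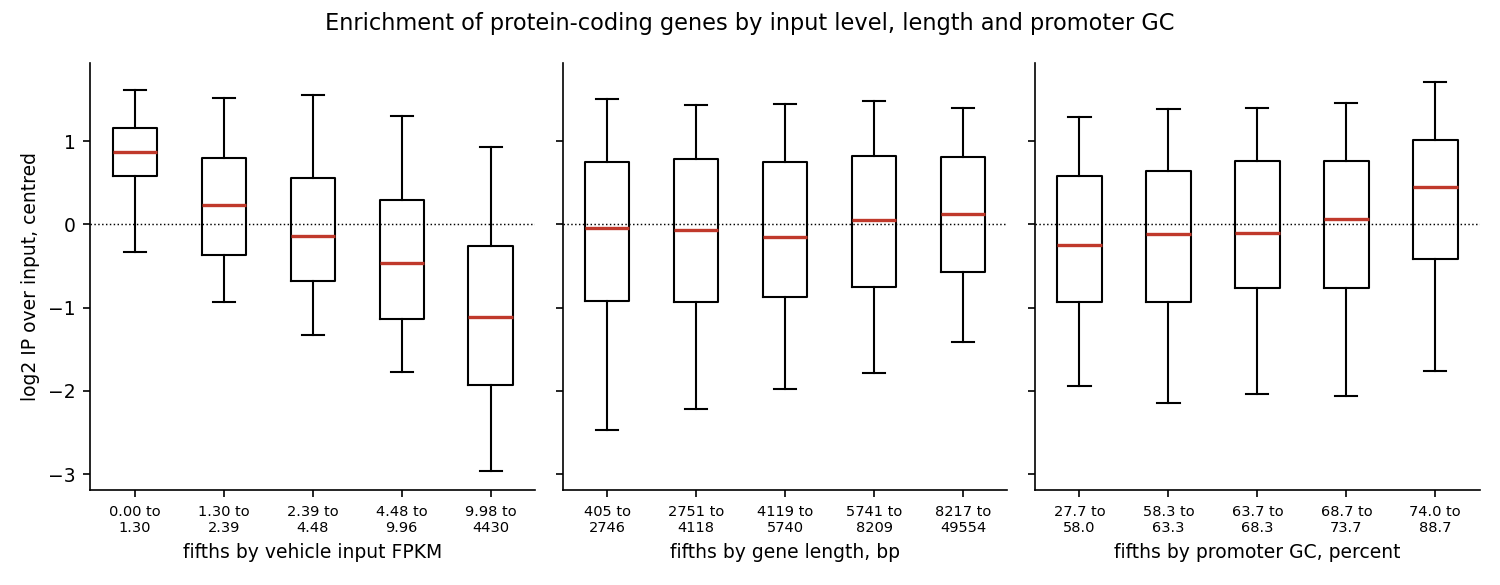
Enrichment of protein-coding genes with at least 50 reads in 5 groups by vehicle input FPKM, gene length and promoter GC; boxes show the middle 50% of genes, red lines the median and whiskers the 5th and 95th percentiles. Medians go down from 0.87 to -1.11 with input level and vary less with length.

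Vehicle cells gave a similar order of genes in a separate pair of libraries. Of 6796 nuclear genes measured in both pairs, 1215 were at least 2-fold higher in lactate cells, and 739 of them (60.8%) were also higher in vehicle cells, where 1116 nuclear genes (12.3%) were. Of the 1398 at least 2-fold lower in lactate cells, 1244 (89.0%) were lower in vehicle cells, where 2158 (23.8%) were. Opposite sides beyond 2-fold were taken by 15 and 5 genes. Spearman's rho across the 6796 genes was 0.90. The vehicle median before centring was 0.44 against -0.09 in lactate cells, and the vehicle libraries held more nuclear reads, 5511727 in the input and 4125895 in the IP. CDCP1 was at 1.57 in lactate and 1.597 in vehicle cells, NSUN2 at -0.27 and -0.56, STC1 at 0.35 and -0.73 and MT-RNR1 at 1.06 and -0.21. With 1 library a group these differences have no error to be set against.

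Lactate peaks overlapped vehicle peaks by at least 1 base in 56.4% of cases, while 27.8% of the 95785 vehicle peaks overlapped a lactate peak. The overlap was 79.4% for 3′ UTR peaks, 71.6% for exon peaks, 66.0% for 5′ UTR peaks, 47.1% for intron peaks and 34.1% for peaks between genes. It was 80.3% for lactate peaks with q of at most 0.05.

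**Figure D5:**
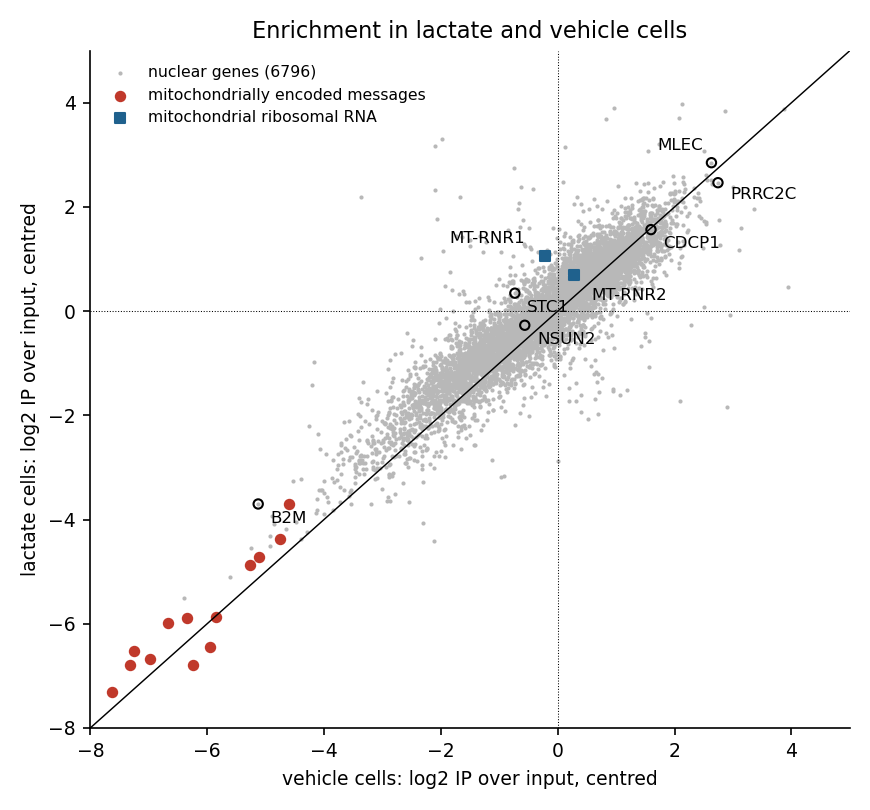
Enrichment (log2 IP over input, each centred on its own median nuclear gene) in vehicle cells (horizontal) and lactate cells (vertical) for 6796 nuclear genes and the mitochondrial genes, with the line of equal values. MT-RNR1 lies above the line at 1.06 against -0.21, and the mitochondrial messages lie at the lower left in both conditions.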

How the data were processed

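RNA of anti-NSUN2 immunoprecipitates and of inputs from PANC-1 cells was sequenced, 1 library a group. Per the submitters' processing notes, the genome was GRCh38/hg38 and the tools were HOMER 4.11.1, fastp 0.20.1, DiffBind, MACS2 2.2.7.1, HISAT2 2.1.0 and bedtools 2.29.2. The counter, its use of strand and the gene annotation are not stated.

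FPKM per gene was deposited by the authors, and so were peak lists with length, fold enrichment, p-value, q-value and their −log10. FPKM steps gave back whole reads: 100% of 72387 values above 0 came out whole within a relative tolerance of 1e-12, and a factor shared by both libraries can be lost. With 1 library a group no count test was run. The recovery was tested on simulated data. FPKM was taken as log2 with a pseudocount of 1, filtered at 1 in either library and centred on the nuclear median. Peak overlap used bedtools 2.31.1, and the rest Python 3.11.15, pandas 2.3.3, numpy 2.4.6, scipy 1.17.1 and matplotlib 3.10.9.

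Genes named are, with at least 50 reads, the 12 highest and lowest protein-coding, the 4 highest and lowest long noncoding, all mitochondrial genes, NSUN2, CDCP1, STC1 and the ends of each of 29 lists (521 of 748 symbols measured), the genes with the most and the highest peaks, and those at the threshold. Other list members were named after their values were seen. Members and lists were chosen with earlier results of these data known. Start windows came from RefSeq. Alternatives were other pseudocounts and filters, no centring, scaling to equal nuclear reads, stricter peaks and a larger overlap; a minimum in both libraries was added after seeing the data. Some members counted here are not reported by name.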

Additional observations from a re-analysis of the deposited data

Results flagged for a closer look

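Several values lay on opposite sides of the median nuclear gene in the lactate and the vehicle pair, with 1 library a group, and none of these differences was tested. MT-RNR1 was at 1.06 in lactate and -0.21 in vehicle cells. STC1 was at 0.35 and -0.73, from 53 and 98 lactate reads. BAZ1A, an ISWI partner, was at -0.28 and 0.63. The histone genes H2BC5 and H4C3 were at 0.40 and 0.21 in lactate cells and at -0.53 and -0.16 in vehicle cells. The median of the integrated stress response list was 0.36 over 18 genes in lactate cells against -0.32 in vehicle cells. Of those 18, 4 passed the filter through the lactate IP alone. Over the 14 above 1 FPKM in both lactate libraries the lactate median was 0.04. The median of the histone list was 0.15 over 7 genes against -0.18 over the 6 measured in vehicle cells. The median nuclear gene before centring differed between the pairs, -0.09 and 0.44, and its part in these values was not tested.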

How the results depend on the processing

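No paired analysis was possible because each group has 1 library. Against 1368 higher and 1461 lower genes, a pseudocount of 0.1 gave 2188 higher, a pseudocount of 5 gave 130 higher and 538 lower, and a minimum of 5 FPKM gave 682 and 535. A minimum of 1 FPKM in both libraries, chosen after seeing the data, gave 495 and 833. The other alternatives stayed within 1.5 times. None of the 115 named genes past 2-fold changed sign in 969 values, and 53 values fell within 2-fold, 33 of them with the pseudocount of 5. The largest shift of the median nuclear gene was -0.645, with the minimum of 5 FPKM. For genes that start past 2-fold a change of sign was thus largely precluded, and its absence is no check of them.

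Of 29 list medians, 17 kept their side of 0. With no filter, immediate early genes turned to -0.0319, nuclear long noncoding RNA to 0.11 and small RNA to 0.0661. With at least 5 FPKM, initiation factors turned to 0.24, DNA replication to -0.40, lactate genes to -0.42, interferon and inflammatory genes to 0.93, keratins to 0.15 and nuclear long noncoding RNA to 0.00337. Without centring, DNA replication turned to -0.0632 and immediate early genes to -0.0240. With equal nuclear reads, initiation factors turned to 0.13, mitosis to 0.12, keratins to 0.28 and nuclear long noncoding RNA to 0.14. With 1 FPKM in both libraries, NSUN2 substrates turned to -0.15, snoRNP proteins to -0.17, chromatin remodelling to -0.0094, lactate genes to -0.29 and small RNA to 0.18. The filters leave fewer members, and the cause was otherwise not tested.

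Peak shares in introns, exons, 3′ UTRs and between genes became 46.9, 24.9, 23.5 and 3.30% with q of at most 0.05, 53.9, 22.5, 18.6 and 3.67% with a fold of at least 4, and 54.4, 21.5, 17.8 and 4.94% when weighted by length. Requiring 50% of a peak to be covered lowered the overlap with vehicle peaks from 56.4 to 49.6%.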
